A study of Homo sapiens with 6 samples.

Results

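The genes described here are 8 genes of fatty acid handling in liver cells: the nuclear receptor gene PPARA, its target genes FABP1 and ANGPTL4, the mitochondrial oxidation genes CPT1A, CPT2, ACADM and HADHA, and the peroxisomal oxidation gene EHHADH. They were taken by symbol from the deposited table, which gave 8 of its 26389 genes, and all 8 had enough reads to be tested. RNA-seq read counts and FPKM values came from 6 samples of HepG2 cells, an established line from a human liver cancer, grown in DMEM with fetal bovine serum. Of these, 3 samples (shTCTP) were transfected with a short hairpin RNA plasmid against TCTP, the translationally controlled tumour protein encoded by TPT1, and 3 samples (shCtrl) with a control hairpin plasmid. Plasmids were delivered by a lipid reagent, so each group may be a mixed population of transfected and untransfected cells of this line. The transfected share was not examined, and the hairpin sequences were not used here. A harvest at 48 h is given in the labels for quantitative PCR, with no separate time for sequencing. The labels do not say that the samples of a group came from separate cultures. The p-values therefore reflect the scatter of these samples alone, and that scatter may be technical.

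PPAR-alpha is a fatty acid-activated nuclear receptor that binds DNA together with a retinoid X receptor and raises transcription of genes for fatty acid uptake and oxidation in the fasting liver. Long-chain fatty acids enter mitochondria through the carnitine shuttle, which CPT1A controls, and are then shortened by repeated cycles of dehydrogenation, hydration, a second dehydrogenation and thiolytic cleavage. Peroxisomes run a parallel cycle, which also takes very long and branched chains. Its middle steps are carried out by EHHADH or by a second bifunctional enzyme, HSD17B4.

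The 6 libraries held 25427614 to 30486409 reads assigned to genes. TPT1, the targeted gene, stood at 2032, 1807 and 1559 CPM (read counts scaled to library size with TMM factors) in shTCTP libraries and at 2575, 2249 and 2290 CPM in shCtrl libraries, 75.9% of control (log2 fold change -0.40, SE 0.17, edgeR adjusted p = 0.396). Library shTCTP 3 was the shallowest and correlated least with the other 5 (mean r across genes 0.977, against 0.986 to 0.987). Of 9 hepatocyte markers all 9 were found, with summed levels of 14795 to 17811 CPM in shTCTP libraries and 19199 to 20017 CPM in shCtrl libraries. Their log2 fold changes were all negative (median -0.28, and -0.18 on log2(FPKM + 1)), with 0 of 9 past the threshold by edgeR or DESeq2 and 1 at an unadjusted edgeR p under 0.05. Over all genes 1.41% passed the threshold by edgeR (0.148% lower in shTCTP), 50.4% were negative and 11.1% had an unadjusted edgeR p under 0.05. TTR stood at -0.50 (adjusted p = 0.164) and TF at -0.36 (adjusted p = 0.454). Of 5 blood cell markers 4 were found, at a summed 785 to 901 CPM in shTCTP and 959 to 1073 CPM in shCtrl libraries, nearly all of it LYZ. CD3E had 0 reads in every shTCTP library and at most 1 in a shCtrl library, PTPRC had no row, and CD68 stood at -0.52 and LYZ at -0.23. Of 7 endothelial and stromal markers 6 were found, at a summed 12.6 to 15.5 CPM in shTCTP and 12.3 to 14.8 CPM in shCtrl libraries, with COL1A1 at a log2 fold change of 1.20 and PDGFRB at 0.04, and the endothelial genes PECAM1, CDH5 and VWF had at most 10 reads in any library. None of these markers passed the threshold.

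The 8 genes covered a wide range of levels. On the length-normalised FPKM scale, FABP1 stood at 159 ± 55.7 FPKM in shTCTP and 254 ± 38.0 FPKM in shCtrl cells (SD, n = 3 each), the 275th most abundant of 14197 tested genes in control. HADHA followed at 66.1 ± 9.30 FPKM in shTCTP and 66.5 ± 5.86 FPKM in shCtrl cells. All others were low. CPT2 averaged 6.04 and 4.96 FPKM in shTCTP and shCtrl cells, ACADM 2.92 and 3.34, CPT1A 2.25 and 2.44, EHHADH 1.55 and 1.54, ANGPTL4 0.870 and 1.43, and PPARA 0.680 and 0.753 FPKM. In control libraries, the ranges of neighbours in this order overlapped for ACADM and CPT1A and for EHHADH and ANGPTL4, and were separate for the other pairs. In shTCTP libraries they overlapped for ACADM and CPT1A, for CPT1A and EHHADH, and for ANGPTL4 and PPARA. PPARA, the receptor, thus had the lowest FPKM of the 8 genes in both groups, and its FPKM divides by 10.5 kb of annotated sequence, against 2.03 kb for FABP1, as derived from the ratio of CPM to FPKM.

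**Figure D1:**
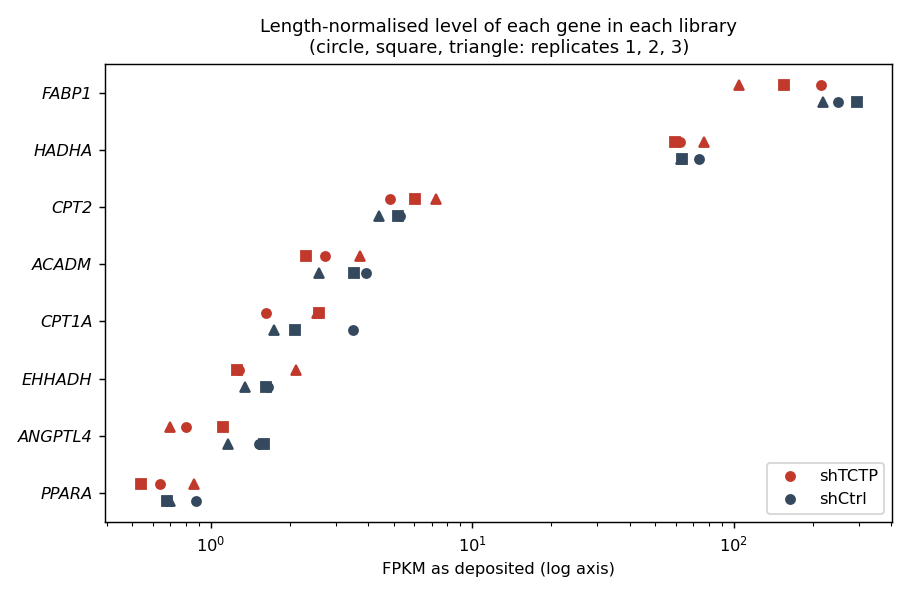
Deposited FPKM of each gene (log axis) in the 3 shTCTP libraries (red, upper row of each gene) and the 3 shCtrl libraries (dark, lower row). FABP1 and HADHA lie at 59.4 FPKM or more in every library and the other 6 genes at 7.25 FPKM or less, with FABP1 and ANGPTL4 shifted to lower values in shTCTP.

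No gene of the 8 passed the threshold. With a threshold of 0.05 on p-values adjusted over all 14197 genes (edgeR quasi-likelihood), 0 of 8 were called, against 1.41% of all genes (1.26% higher and 0.148% lower in shTCTP), and DESeq2 also called 0. At an unadjusted edgeR p under 0.05 there were 2 of 8, FABP1 and ANGPTL4 (11.1% of all genes), and 1 of 8 with DESeq2. Log2 fold changes were negative for 7 of 8 genes, against 50.4% of all genes, and their median was -0.24, against -0.00 over all genes. That median was -0.15 without shCtrl 1, and on log2(FPKM + 1), which is not TMM-scaled, it was -0.06, against 0.06 over all genes. On that scale PPARA stood at -0.06, ACADM at -0.15, HADHA at -0.014 and EHHADH at -0.0089. Every shTCTP library lay below every shCtrl library for FABP1, ANGPTL4 and HADHA, 3 of 8, against 7.30% of all genes. For 0 of 8 did every shTCTP library lie above every shCtrl library, against 9.83% of all genes. FABP1 and ANGPTL4, 2 of 8, had estimates below -0.5, against 4.50% of all genes. CPT2 alone had a positive estimate.

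**Figure D2:**
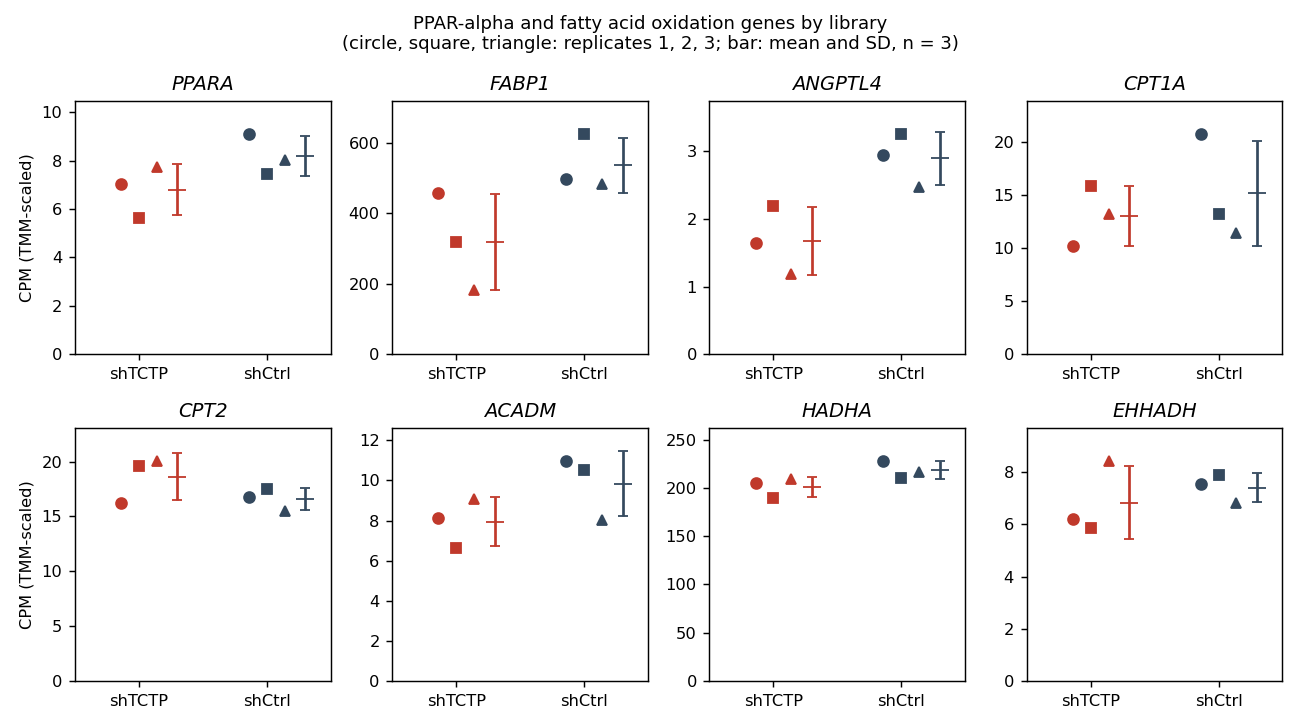
CPM of the 8 genes in each library, shTCTP (red) left of shCtrl (dark), each axis starting at 0. Points are libraries and bars are the mean and SD (n = 3). FABP1 shows shTCTP libraries at 456, 318 and 182 CPM and ANGPTL4 at 1.64, 2.19 and 1.18 CPM, all below the shCtrl libraries, while the other genes except HADHA overlap between groups.

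PPARA (ENSG00000186951.16, GRCh38 chromosome 22, 46150521 to 46243756, plus strand, 12 annotated transcripts in GENCODE 29) stood at 7.02, 5.65 and 7.73 CPM in shTCTP libraries and at 9.12, 7.46 and 8.04 CPM in shCtrl libraries. Library shTCTP 3 lay above shCtrl 2, so the groups overlapped. The log2 fold change was -0.27 (SE 0.18, 95% confidence interval -0.66 to 0.11, edgeR adjusted p = 0.627), an estimated 82.9% of control with an interval of 63.5% to 108%. The 3 genes whose log2 CPM profile over the 6 libraries was nearest to that of PPARA, by root mean square distance among 12203 genes with at least 1 CPM, were the lactate transporter gene SLC16A1 (0.04), the DNA repair gene FANCD2 (0.05) and the dipeptidyl peptidase gene DPP4 (0.05). Their log2 fold changes were -0.29, -0.27 and -0.20, and none passed. Fold changes like that of PPARA follow from choosing genes by their profile over the same libraries.

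Of 16 listed receptors and cofactors of the family 15 were tested, and 0 were called by edgeR (1.41% of all genes) or by DESeq2. At an unadjusted edgeR p under 0.05 there were also 0 (11.1% of all genes). Estimates were positive for 10 and negative for 5, against 50.4% negative over all genes. The list's median was 0.17 with all libraries, 0.11 without shTCTP 2, 0.04 without shTCTP 3 and 0.09 without shCtrl 3, and its estimates ran from -0.66 to 0.30. PPARGC1B, a coactivator of oxidative metabolism, had the smallest p, with 19 to 30 reads in shTCTP and 27 to 45 reads in shCtrl libraries and an estimate of -0.66 (SE 0.33, adjusted p = 0.478). PPARG, the fat cell receptor of the family, was next at 0.24 (SE 0.15, edgeR adjusted p = 0.589).

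FABP1 (ENSG00000163586.9, chromosome 2, 88122982 to 88128116, minus strand) encodes the liver fatty acid binding protein, which carries fatty acids in the cytosol. It was at 456, 318 and 182 CPM in shTCTP libraries, from 13315, 9449 and 5389 reads. The shCtrl libraries gave 497, 625 and 484 CPM, from 15160, 18024 and 13480 reads. The highest shTCTP library, shTCTP 1, was only just below the lowest shCtrl library, while shTCTP 3 was far below the rest. The log2 fold change was -0.75 (SE 0.24, 95% confidence interval -1.25 to -0.25), an estimated 59.5% of control with an interval of 42.0% to 84.3%, and it did not pass (edgeR adjusted p = 0.173, rank 487 by p). Within the shTCTP group the coefficient of variation was 43.0%, where counting error alone gives 1.09%, and in shCtrl it was 14.6%. The summed level of hepatocyte markers given above was also lower in every shTCTP library, and their part in this difference was not tested. In bulk RNA of this cell line, a change in some of the cells and a change in every cell cannot be told apart. Without shTCTP 1 the log2 fold change was -1.10 and passed (edgeR adjusted p = 0.0064), without shTCTP 3 it was -0.46 (edgeR adjusted p = 0.196), and over all 14 alternatives the adjusted p ran from 0.000321 to 0.569.

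The upstream sequence of FABP1 is shown because it is the most abundant of the 8 genes and holds elements that most of the others lack. The 250 bases before the RefSeq start site (GRCh38.p14, chr2:88128063-88128312, minus strand) are given 5′ to 3′, with capitals marking the closest match to a direct repeat of the nuclear receptor half-site, searched on both strands as 2 copies of AGGTCA with 1 base between them, and a TATAAA box.
FABP1: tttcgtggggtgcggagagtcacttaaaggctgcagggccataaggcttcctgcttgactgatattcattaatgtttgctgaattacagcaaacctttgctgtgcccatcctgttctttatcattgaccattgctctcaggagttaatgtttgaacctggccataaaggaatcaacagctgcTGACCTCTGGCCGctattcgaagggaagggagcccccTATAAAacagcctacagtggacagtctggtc
The repeat match lies on the reverse strand with 2 mismatches, starts 68 bases before the start site and contains the only AGGTCA half-site of this window. A match with at most 2 mismatches occurred in 2.56% of 34788 promoter windows of the same length, and AGGTCA in 12.0%. The TATAAA box, 31 bases before the start site, is a sequence found on either strand in 10.8% of windows. G and C made up 48.0% of the FABP1 window.

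ANGPTL4 (ENSG00000167772.11, chromosome 19, 8363289 to 8374373, plus strand) encodes a secreted inhibitor of lipoprotein lipase. It was measured on few reads, 48, 65 and 35 in shTCTP libraries and 90, 94 and 69 in shCtrl libraries. These correspond to 1.64, 2.19 and 1.18 CPM in shTCTP and 2.95, 3.26 and 2.48 CPM in shCtrl libraries, with no overlap. The log2 fold change was -0.79 (SE 0.27, 95% confidence interval -1.35 to -0.23), an estimated 57.7% of control with an interval of 39.1% to 85.2%, and it did not pass (edgeR adjusted p = 0.211, and 0.168 to 0.642 over the 14 alternatives). Counting error alone gives a coefficient of variation of 14.6% at the depth of the shTCTP libraries, against 30.1% observed. The upstream 250 bases (GRCh38.p14, chr19:8363905-8364154, plus strand) are shown beside those of FABP1 because ANGPTL4 was the only other gene of the set with a TATAAA box there, in capitals, 29 bases before the start site.
ANGPTL4: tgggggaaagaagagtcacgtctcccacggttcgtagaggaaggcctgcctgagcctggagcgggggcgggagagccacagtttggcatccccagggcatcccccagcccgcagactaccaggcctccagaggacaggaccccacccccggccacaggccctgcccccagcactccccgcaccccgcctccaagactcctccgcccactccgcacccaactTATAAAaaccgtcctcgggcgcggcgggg
Its closest match to the direct repeat had 4 mismatches. RefSeq windows were found for 7 of the 8 genes, not for EHHADH, and 2 of the 7 held TATAAA and 1 held AGGTCA. The windows of PPARA, CPT2, ACADM and HADHA held neither and had G and C contents of 65.2% to 87.2%, and that of CPT1A held neither at 44.4%. A match is a description of letters only.

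The profiles of these genes over the 6 libraries were compared with those of 12203 others. A near profile brings a like fold change with it, so the fold changes of the nearest genes are no separate result. Nearest to FABP1 were the antimicrobial peptide gene LEAP2, at a distance of 0.07 on the log2 scale and a log2 fold change of -0.76, the mitochondrial fission gene MTFP1 at 0.10 and -0.68, and the cytokine gene IL17B at 0.14 and -0.65. Nearest to ANGPTL4 were the lipid transporter gene ABCA7 at 0.05 and -0.84, the kinase gene SBK1 at 0.09 and -0.72, and BIRC7, of the inhibitor of apoptosis family, at 0.11 and -0.64. Of these 6 genes ABCA7 passed the threshold (edgeR adjusted p = 0.0417). It missed it without any 1 shCtrl library or shTCTP 1, where its adjusted p reached 0.244.

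Among 20 listed PPAR-alpha targets outside beta-oxidation, 18 were in the table and 13 were tested. None was called by edgeR (1.41% of all genes), and DESeq2 called 1 lower, APOA5. An unadjusted edgeR p under 0.05 was found for 4 (11.1% of all genes). The median log2 fold change was -0.28 (-0.18 on log2(FPKM + 1)), and 11 of 13 were negative (50.4% of all genes). FABP1 and ANGPTL4, described above, are among the 4 and among the negative genes, and APOA1 is also a hepatocyte marker. These counts are thus not separate from those given above. APOA5, an apolipoprotein that promotes triglyceride clearance, stood at 22.7, 16.8 and 14.1 CPM in shTCTP and 22.6, 34.4 and 29.8 CPM in shCtrl libraries. The highest shTCTP value just exceeded the lowest shCtrl value. Its log2 fold change was -0.70 (SE 0.19, edgeR adjusted p = 0.0915, DESeq2 adjusted p = 0.0333), and it passed in edgeR without shTCTP 1 (adjusted p = 0.0150). Without shTCTP 1 edgeR called 2 genes of this list lower, APOA5 and FABP1. Without shTCTP 3 it called 1 lower, the fatty acid transport gene SLC27A2 (-0.75, adjusted p = 0.0373, against -0.49 and 0.478 with all libraries), and neither of the other two. Upstream of a RefSeq start site of APOA5 the direct repeat had a match with 1 mismatch, starting 242 bases before it, which occurred in 0.282% of windows. The window of its other RefSeq start site had a best match with 4 mismatches. APOA5 had the smallest p of this list, and windows of the other targets, except FABP1 and ANGPTL4, were not examined individually. The share of windows does not allow for this choice of gene. A link between the match and the fold change was not tested. ACOT1, a cytosolic acyl-CoA thioesterase, stood at 21.6, 23.8 and 20.4 CPM in shTCTP and 29.8, 28.0 and 31.3 CPM in shCtrl libraries without overlap (log2 fold change -0.44, SE 0.14, edgeR adjusted p = 0.164). Its close paralog ACOT2 can share reads with it, so that value is uncertain. Some well known targets were hardly read at all. PDK4, which restrains glucose oxidation, had 2, 2 and 0 reads in shTCTP and none in the shCtrl libraries, where a count of 0 allows up to 0.0984 to 0.108 CPM by counting error alone. FGF21, a fasting hormone, had at most 4 reads, and CD36, a fatty acid transporter, at most 10 reads in any library.

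Of 15 listed genes of fatty acid uptake and activation 12 were tested and 0 called by edgeR (1.41% of all genes) or DESeq2. An unadjusted edgeR p under 0.05 was found for 4 (11.1% of all genes), and the median was -0.21 (-0.088 on log2(FPKM + 1)). The smallest p belonged to ACSL5, a long-chain acyl-CoA synthetase. It stood at 87.1, 80.4 and 88.9 CPM in shTCTP libraries, above the 65.6, 67.8 and 55.7 CPM of shCtrl libraries, and did not pass (log2 fold change 0.44, SE 0.13, edgeR adjusted p = 0.133). FABP1, in the same list, was next, with an estimate of opposite sign. Without shTCTP 1 edgeR called 1 gene of this list lower, FABP1, and without shTCTP 3 it called SLC27A2 in place of FABP1.

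The carnitine shuttle brings activated long-chain fatty acids into mitochondria. CPT1A (ENSG00000110090.12, chromosome 11, 68754620 to 68844410, minus strand) encodes the liver form of the outer membrane transferase, the regulated entry step. Its libraries scattered widely, with 10.2, 15.8 and 13.2 CPM in shTCTP and 20.8, 13.2 and 11.4 CPM in shCtrl. All shTCTP values lay below shCtrl 1 and around the other 2 control libraries. The log2 fold change was -0.22 (SE 0.21, 95% confidence interval -0.67 to 0.24, edgeR adjusted p = 0.776), and without shCtrl 1 its sign turned, to 0.08. CPT2 (ENSG00000157184.5, chromosome 1, 53196429 to 53214197, plus strand), the inner membrane transferase that completes the shuttle, stood at 16.2, 19.6 and 20.1 CPM in shTCTP and 16.8, 17.5 and 15.5 CPM in shCtrl libraries. Libraries shTCTP 2 and 3 were above all controls and shTCTP 1 was among them (log2 fold change 0.17, SE 0.15, 95% confidence interval -0.14 to 0.48, edgeR adjusted p = 0.736). SLC25A20, the carnitine-acylcarnitine carrier between the transferases, was estimated at 0.16 on the log2 scale (SE 0.16, adjusted p = 0.775).

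CPT1B, the muscle form of the outer membrane transferase, was the gene of the listed oxidation pathway that rose. It stood at 5.65, 6.46 and 6.82 CPM in shTCTP libraries and 3.05, 3.78 and 2.87 CPM in shCtrl libraries, from 165, 192 and 202 reads against 93, 109 and 80. The groups did not overlap, and the log2 fold change was 0.96 (SE 0.20, 95% confidence interval 0.54 to 1.39, edgeR adjusted p = 0.0224). The FPKM ratio of CPT1B to CPT1A was 1.08, 0.796 and 1.01 in shTCTP libraries and 0.286, 0.560 and 0.489 in shCtrl libraries, and the difference between the 2 genes was not tested. CPT1B missed the threshold without shTCTP 2 or any 1 shCtrl library, where its adjusted p by edgeR reached 0.133. Its value is uncertain, because 66.4% of its exonic bases (chromosome 22, 50568861 to 50578465, minus strand) also belong to the readthrough gene CHKB-CPT1B on the same strand, and the sources used here do not say how reads in shared bases were counted. CHKB-CPT1B itself was estimated at 0.35 on the log2 scale (SE 0.18, adjusted p = 0.491).

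**Figure D3:**
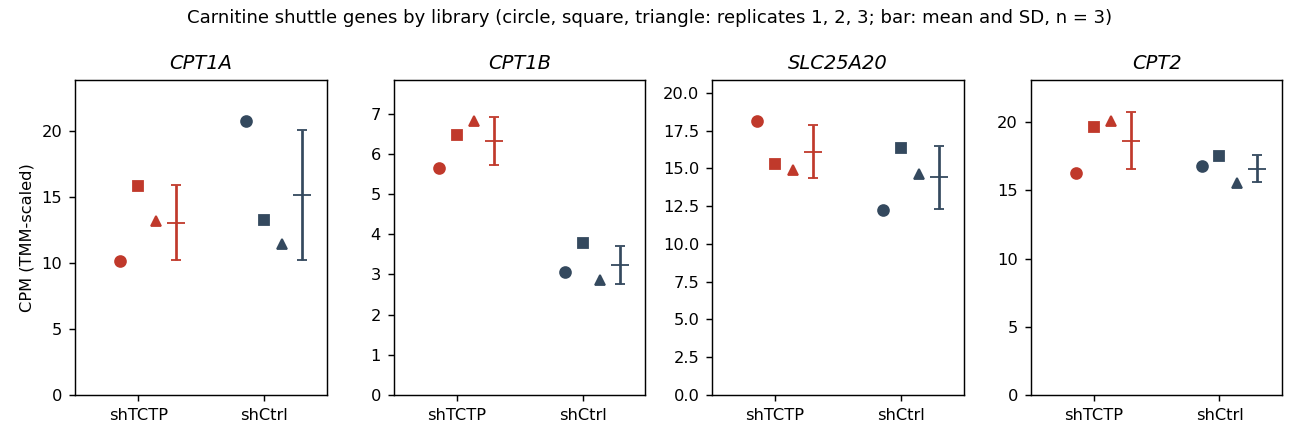
CPM of the carnitine shuttle genes in each library, shTCTP (red) left of shCtrl (dark), each axis starting at 0, with bars for the mean and SD (n = 3). CPT1B is at 5.65 to 6.82 CPM in shTCTP and 2.87 to 3.78 CPM in shCtrl libraries, while CPT1A, SLC25A20 and CPT2 overlap between groups.

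Inside mitochondria, ACADM (ENSG00000117054.13, chromosome 1, 75724347 to 75787575, plus strand), the medium-chain acyl-CoA dehydrogenase, stood at 8.12, 6.63 and 9.08 CPM in shTCTP and 11.0, 10.5 and 8.0 CPM in shCtrl libraries. The lowest control library lay among the shTCTP libraries. The log2 fold change was -0.31 (SE 0.18, 95% confidence interval -0.70 to 0.08, edgeR adjusted p = 0.573), and 3.28% of the gene's exonic bases are shared with RABGGTB on the same strand, which had a log2 fold change of -0.12. The short-chain dehydrogenase ACADS was at -0.25 (SE 0.13) and the very-long-chain enzyme ACADVL at -0.01 (SE 0.14), whose sign turned in some alternatives. None of the 3 passed.

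HADHA (ENSG00000084754.10, chromosome 2, 26190635 to 26244726, minus strand) encodes the alpha subunit of the trifunctional protein, which hydrates and dehydrogenates long-chain intermediates. It had the tightest replicates of the 8 genes, 206, 189 and 209 CPM in shTCTP and 228, 211 and 216 CPM in shCtrl libraries, from 5630 to 6959 reads. Every shTCTP library lay below every shCtrl library, only narrowly, and the log2 fold change was -0.12 (SE 0.13, 95% confidence interval -0.38 to 0.15, edgeR adjusted p = 0.791). The estimate was 92.1% of control with an interval of 76.6% to 111%. This separation rests on the TMM scaling: in deposited FPKM the shTCTP libraries gave 62.2, 59.4 and 76.7 and overlapped the 73.3, 63.5 and 62.8 of the shCtrl libraries. HADHB, the thiolase subunit of the same complex, was at 91.1, 80.3 and 83.5 CPM in shTCTP and 101, 92.8 and 94.8 CPM in shCtrl libraries (log2 fold change -0.18, SE 0.12, edgeR adjusted p = 0.639). The FPKM ratio of HADHA to HADHB was 1.66, 1.74 and 1.84 in shTCTP and 1.66, 1.67 and 1.68 in shCtrl libraries.

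These 2 genes are transcribed away from each other, and their RefSeq start sites are 307 bases apart. The 250 bases before the HADHA start site (GRCh38.p14, chr2:26244633-26244882, minus strand) lie wholly between both start sites and are shown as the shared upstream region of the complex. They hold no TATAAA, and the closest direct repeat match had 4 mismatches, so no letters are in capitals.
HADHA: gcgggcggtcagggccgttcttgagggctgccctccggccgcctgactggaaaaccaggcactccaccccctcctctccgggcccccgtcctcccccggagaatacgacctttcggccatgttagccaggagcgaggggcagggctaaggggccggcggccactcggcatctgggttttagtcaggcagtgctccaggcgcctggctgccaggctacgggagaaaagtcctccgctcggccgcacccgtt
The G and C content was 68.8%, the same as in the ANGPTL4 window and above the 48.0% of FABP1.

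EHHADH (ENSG00000113790.10, chromosome 3, 185190624 to 185281990, minus strand) encodes the peroxisomal bifunctional enzyme, which joins the hydratase and dehydrogenase steps. It stood at 6.20, 5.85 and 8.44 CPM in shTCTP and 7.54, 7.87 and 6.82 CPM in shCtrl libraries. Libraries shTCTP 1 and 2 were below all controls and shTCTP 3 above all of them. The log2 fold change was -0.12 (SE 0.19, 95% confidence interval -0.52 to 0.28, edgeR adjusted p = 0.872), an estimated 92.2% of control with an interval of 70.0% to 121%. Leaving out 1 library moved the estimate between -0.29, without shTCTP 3, and -0.033, without shTCTP 2. The FPKM ratio of EHHADH to HADHA was 0.0231 ± 0.00390 in shTCTP and 0.0232 ± 0.00205 in shCtrl cells (SD, n = 3 each). By library it was 0.0206, 0.0212 and 0.0276 in shTCTP and 0.0227, 0.0255 and 0.0215 in shCtrl. Libraries shTCTP 1 and 2 lay below all shCtrl libraries and shTCTP 3 above them, and the difference was not tested.

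For the wider comparison, 19 of 21 listed mitochondrial and 16 of 17 listed peroxisomal genes of beta-oxidation were tested. No gene was placed in both lists, and where the gene products lie in the cell was not examined. Of the mitochondrial genes 1 rose, CPT1B, 0 fell and 2 had an unadjusted edgeR p under 0.05. The shares over all genes were 1.26%, 0.148% and 11.1%. The median log2 fold change was -0.14, with 15 of 19 negative, against 50.4% of all genes. Of the peroxisomal genes 0 were called by edgeR or DESeq2 and 0 had an unadjusted edgeR p under 0.05, and the median was -0.11, with 14 of 16 negative. The mitochondrial median minus the peroxisomal median was -0.03. The same difference taken per library had a pooled SD of 0.06 within groups, which is not a standard error of the -0.03. Per library, that difference was 0.04, -0.09 and -0.04 in shTCTP and -0.00, 0.02 and -0.06 in shCtrl, with the groups overlapping. Both medians were nearer 0 on the log2 FPKM scale with a pseudocount of 1, which is not TMM-scaled, at -0.03 and -0.00 with a median of 0.06 over all genes.

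**Figure D4:**
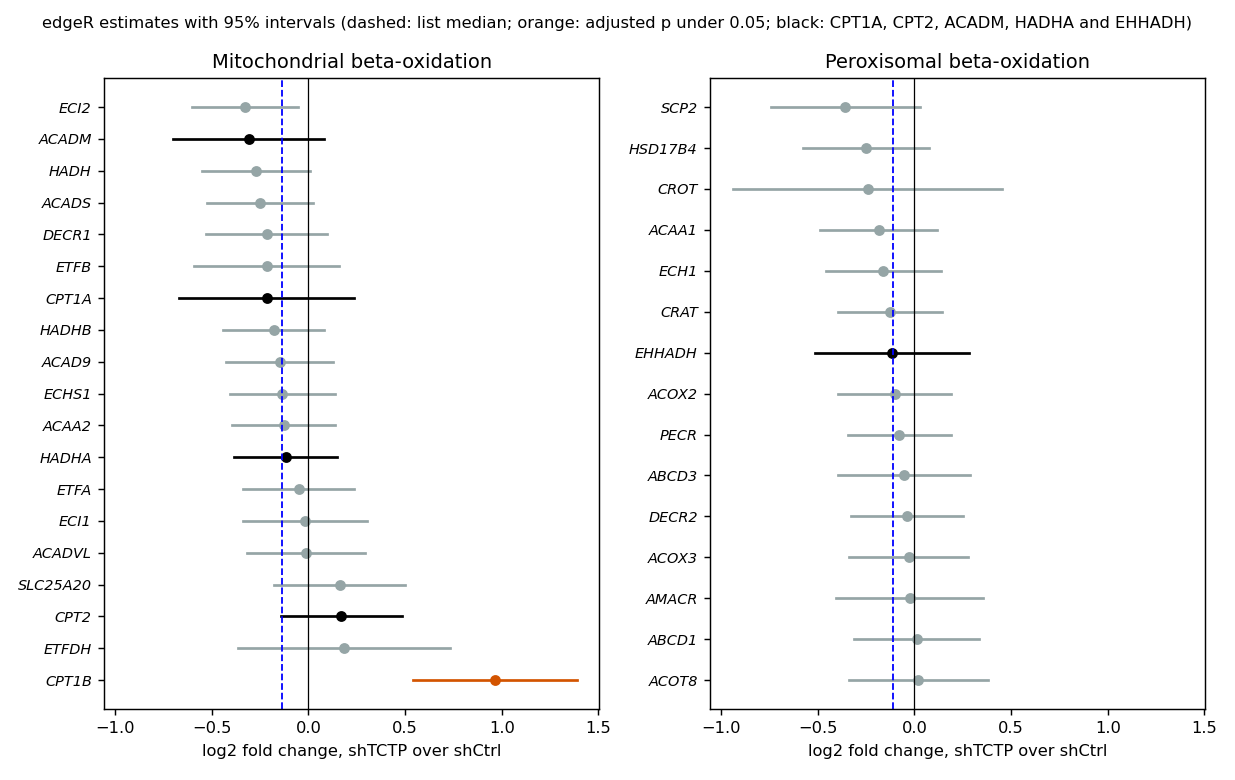
Log2 fold change (shTCTP over shCtrl) with its 95% interval for 19 mitochondrial (left) and 15 of the 16 tested peroxisomal (right) genes of beta-oxidation. Dashed lines mark the medians of the full lists, -0.14 and -0.11. All intervals shown but those of CPT1B, at 0.96, and ECI2, at -0.33, include 0.

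ECI2, an enoyl-CoA isomerase counted here in the mitochondrial list only, had the second smallest p of that list. Its estimate was -0.33 on the log2 scale (SE 0.13, edgeR adjusted p = 0.335), and its place in the cell was not examined. The hydroxyacyl dehydrogenase HADH stood at -0.27, the dienoyl reductase DECR1 and the electron carrier subunit ETFB both at -0.22, the hydratase ECHS1 at -0.14 and the thiolase ACAA2 at -0.13. Estimates of ACAD9, ECI1, ETFA and ETFDH lay between -0.15 and 0.18. Among peroxisomal genes SCP2, a thiolase and sterol carrier, was at -0.36 (SE 0.18, edgeR adjusted p = 0.487) and HSD17B4, the second bifunctional enzyme, at -0.25 (SE 0.15, edgeR adjusted p = 0.586). ACOX2, the branched-chain oxidase, was at -0.10. The thiolase ACAA1 stood at -0.19, the dienoyl isomerase ECH1 at -0.16, the carnitine acetyltransferase CRAT at -0.13 and the enoyl reductase PECR at -0.08. A further 7 tested peroxisomal genes lay between -0.24 and 0.02.

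Neighbouring steps gave no call either, by edgeR (1.41% of all genes) or DESeq2. Of 19 listed genes of peroxisome assembly 16 were tested, with a median of -0.07 (-0.12 without shTCTP 2 or shCtrl 2, and 0.02 on log2(FPKM + 1)). An unadjusted edgeR p under 0.05 was found for 2 (11.1% of all genes), among them the import ATPase gene PEX6 (-0.39, edgeR adjusted p = 0.429). Of 5 tested genes of omega-oxidation, which starts at the far end of the chain, ALDH3A2 stood at -0.21 and CYP4F12 at -0.27, with a median of -0.21 (-0.11 without shCtrl 1 and -0.095 on log2(FPKM + 1)) and 0 at an unadjusted p under 0.05. Of 4 genes of ketone body synthesis 3 were tested, BDH1 at -0.24 and ACAT1 at 0.02, and 5 genes that set the malonyl-CoA brake on CPT1 had a median of -0.01 (-0.07 to 0.05 with 1 library left out, and 0.04 on log2(FPKM + 1)), the kinase subunits PRKAA1 and PRKAA2 standing at 0.31 and 0.28. In these last 2 lists 0 genes had an unadjusted p under 0.05.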

How the data were processed

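Polyadenylated RNA of 6 HepG2 samples was sequenced as paired reads from directional libraries, per the labels' protocols. The authors deposited a table of raw read counts and a table of FPKM, both by gene. The submitters' processing notes name GRCh38 and the tools TopHat2, bcl2fastq and edgeR. The counting tool, the annotation and the use of strand are not given in the sources consulted.

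Counts were filtered with filterByExpr, scaled by TMM factors and tested with the edgeR 4.0.16 quasi-likelihood test (R 4.3.3) with robust dispersion, the model holding group alone. Benjamini-Hochberg adjustment ran over all 14197 tested genes, with a threshold of 0.05. Standard errors come from the estimate and the F statistic. Within groups no 2 libraries matched within counting noise (chi-square over degrees of freedom 15.1 to 94.1). Of 153 entries in 13 gene lists 143 were matched. Alternatives were RLE and upper quartile scaling, DESeq2 1.42.0, 2 other filters, a block for replicate number, limma 3.58.1 on log2(FPKM + 1) and log2(FPKM + 0.1), and each library left out. The procedure was tested on simulated data with 200 changed genes, 50 at each fold. It recovered 40% of 1.5-fold, 68% of 2-fold, 92% of 4-fold and 100% of 8-fold changes. Of its 161 calls 6.83% were false. A gene that was not called may therefore have changed by 1.5-fold or 2-fold, and in some cases by 4-fold. The changed genes were drawn at random over all levels, with noise drawn separately for each gene. These rates therefore need not hold for genes with few reads, such as ANGPTL4.

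The 8 genes and the lists were chosen with earlier results of these data known. Named are TPT1, the 8 genes, genes of both beta-oxidation lists by their step, of each other list those past the threshold or else the 2 with the smallest p, and the 3 nearest profiles of PPARA, FABP1 and ANGPTL4. Other genes named for overlap, for a call under an alternative or for reads too few to test (CHKB-CPT1B, SLC27A2, RABGGTB, PDK4, FGF21, CD36, CD3E, PTPRC, PECAM1, CDH5, VWF and the paralog ACOT2) were chosen after their values were seen. Some listed genes are not reported here by name. Gene coordinates are from GENCODE 29 and upstream sequences from RefSeq, both on GRCh38. Figures were drawn with matplotlib 3.10.9.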

Additional observations from a re-analysis of the deposited data

How the results depend on the processing

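Of 112 fold changes (8 genes under 14 alternatives), 109 kept their direction and their side of the threshold. The exceptions were FABP1, which passed with no filter on low counts (-0.76, edgeR adjusted p = 0.000321) and without shTCTP 1 (-1.10), so that 1 of the 8 genes was then called, and CPT1A, which ran from -0.39 to 0.081 with 1 library left out. The number called among the 8 genes was thus 0 to 1 with 1 library left out. Over the whole table, where 200 genes were called, the number was 317 with no filter, 314 with DESeq2 and 79 to 343 with 1 library left out. Mitochondrial genes called were 0 on log2(FPKM + 1) and 0 to 1 with 1 library left out. The mitochondrial minus peroxisomal difference ran between -0.07 and 0.00, moving by less than 0.06, the pooled SD of its per-library values. ACADVL stood at 0.10 on both FPKM scales and PECR at 0.024 on log2(FPKM + 1) and 0.025 on log2(FPKM + 0.1). With 1 library left out ACADVL ran from -0.13 to 0.10, ACAT1 from -0.088 to 0.11 and PDGFRB from -0.031 to 0.12. APOA5 passed with no filter and LEAP2 with no filter or without shTCTP 1. The causes were not tested.

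Same-numbered libraries did not deviate together (correlations -0.23, 0.00 and -0.20), so the replicate numbers were not taken as pairs. With the replicate block 130 genes and 0 mitochondrial genes were called, CPT1B having an edgeR adjusted p of 0.0544. ANGPTL4 rests on 35 to 94 reads per library. The limit given for a PDK4 count of 0 covers counting error only, whereas confidence intervals of fold changes also hold the fitted scatter between libraries.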
